A study of Mus musculus with 12 samples.

Results

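The 9 genes described here act in making and breaking down heme, and they were chosen by name, with earlier results of these data known. The first 7 are the heme synthesis enzymes Alas1, Alad, Uros, Urod, Cpox, Ppox and Fech, in the order of their steps. Then come Hmox1, whose product degrades heme, and Blvrb, a reductase that acts on the biliverdin so formed. The 9 genes were found as the 15 probe sets annotated with exactly 1 of these symbols, among 20380 such probe sets for 12393 genes. A probe set is a group of short oligonucleotides on the array that reads one transcript. The genes Alas1, Cpox, Ppox and Fech had more than 1 probe set, and for these the brightest probe set on average was taken.

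The mice were C57BL/6 females between 8 and 12 weeks of age, and their whole-liver RNA was hybridised to 12 Affymetrix Mouse430A arrays, with 3 arrays in each of 4 groups. The groups were HDAC6–/– mice (HDAC6 knockout), HDAC9–/– mice (HDAC9 knockout), wild-type mice on a high-fat diet after weaning with 60% of energy from fat, and wild-type mice on regular chow with 25%. HDAC6 and HDAC9 are histone deacetylases, enzymes that take acetyl groups off proteins. The labels gave no diet for the knockouts and did not say how the genes were deleted or in which cells, so a difference between a knockout and chow can hold a difference of diet. Replicates are numbered with no statement that they came from separate mice. The p-values therefore reflect only how far these samples lie apart, which may be technical.

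Heme is an iron-holding ring that cytochrome P450 enzymes, catalase and the respiratory chain need to work, and liver makes more of it than any tissue outside the bone marrow. Alas1 catalyses the first and rate-limiting step in liver, and its transcript is known to be held down by heme itself and to respond to fasting, drugs and the circadian clock. Heme oxygenase 1, the product of Hmox1, opens the ring into biliverdin, iron and carbon monoxide, and its gene is known to be induced by heme and oxidative stress and to be strongly expressed in macrophages that take up old red blood cells.

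Expression is given as log2 values per probe set, on which a difference of 1 is a doubling. Array medians lay between 5.78 and 5.86, and a group difference had a standard error (SE) of 0.124 for the median gene, a precision limited by the number of arrays. Hepatocyte markers were high throughout (list means from 12.96 to 13.12), while the 10 measured red blood cell and erythroid markers had low list means (4.38 to 4.65). Among these 10, Alas2 had group means from 6.87 to 7.84, and the listed beta-globin genes had no match among the probe sets with exactly 1 symbol. Hdac6 averaged 6.28 ± 0.198 (SD, n = 3) in its knockout and 7.91 ± 0.060 on chow, whereas Hdac9, at 4.204 ± 0.180 against 4.30 ± 0.109, was too low in every group to check the label. HDAC9 knockout replicate 2 stood apart: its exocrine pancreas markers averaged 8.20, against 4.17 to 5.004 on the other 11 arrays, and the differences of the 9 genes between the HDAC9 knockout and chow are also given without it.

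Alas1, the first enzyme of the pathway, had its highest level in chow livers and lower means in the other groups. Its log2 values were 10.93, 11.31 and 11.33 in the chow group, 10.51, 10.25 and 10.06 in the HDAC6 knockout group, 10.86, 10.93 and 10.43 in the HDAC9 knockout group, and 10.01, 10.62 and 10.69 in the high-fat group. All 3 HDAC6 knockout arrays and all 3 high-fat arrays lay below all 3 chow arrays. Of the HDAC9 knockout arrays only replicate 2, the array with pancreas transcripts, reached the lowest chow array (10.9316 against 10.9305). The group means were 11.19 ± 0.223 on chow, 10.74 ± 0.271 in the HDAC9 knockout, 10.44 ± 0.373 on the high-fat diet and 10.28 ± 0.227 in the HDAC6 knockout (SD, n = 3 each). Over the 12 arrays Alas1 spanned 1.32, a range larger than that of 97.1% of genes.

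None of the Alas1 differences passed the threshold of an adjusted p under 0.05 over all 12393 genes in limma, a linear model that shares variance information between genes. The HDAC6 knockout mean was 1.88-fold below chow (log2 difference -0.91, SE 0.185, 95% interval -1.31 to -0.52, adjusted p = 0.214), and only 11 genes had a smaller p in that comparison. The high-fat mean was 1.68-fold below chow (-0.75, SE 0.185, 95% interval -1.15 to -0.35, adjusted p = 0.156). The HDAC9 knockout mean was 1.37-fold below chow (-0.45, SE 0.185, adjusted p = 0.763), and -0.55 without the array that carried pancreas transcripts. These 3 differences share the chow arrays, so they are not separate evidence. Compared directly, the other groups did not differ past the threshold: HDAC9 against HDAC6 knockout was 0.46 (95% interval 0.067 to 0.859, adjusted p = 1.00; 0.37 without the array with pancreas transcripts), high-fat against HDAC6 knockout 0.16 (-0.23 to 0.56, adjusted p = 0.922) and high-fat against HDAC9 knockout -0.30 (-0.70 to 0.097, adjusted p = 0.794; -0.20 without that array). In the order of the 4 means, chow and the HDAC6 knockout are thus the ends, and no neighbouring groups differed past the threshold.

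**Figure D1:**
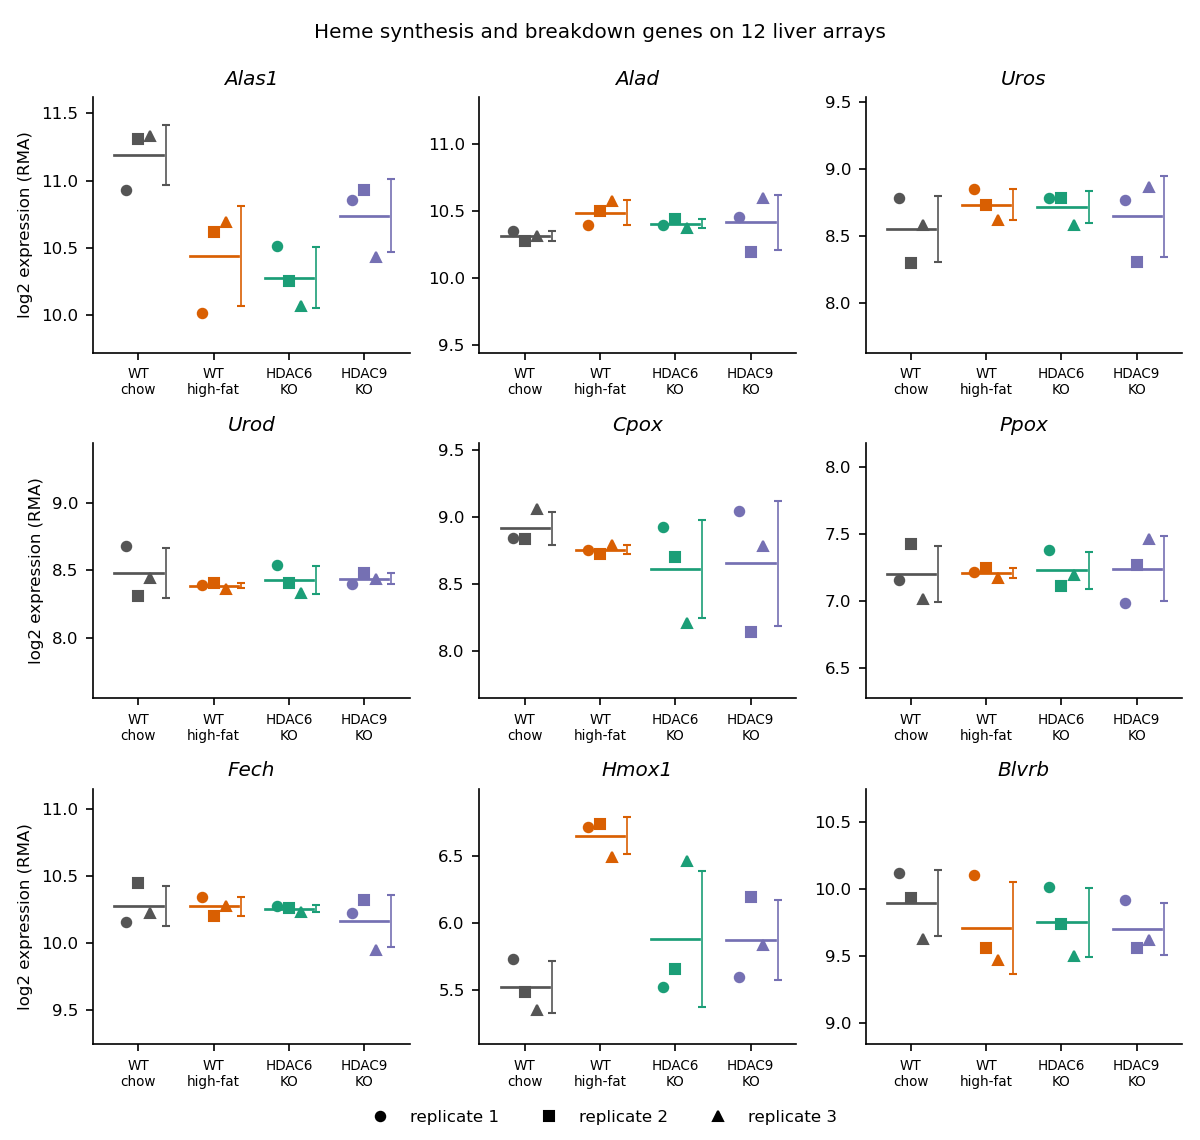
Log2 expression of the 9 genes (y axis; every panel spans the same number of log2 units) in the 4 groups (x axis); each marker is an array, its shape the replicate number, the horizontal line the group mean and the side bar the SD. Hmox1 sits between 6.49 and 6.74 on the 3 high-fat arrays and at most 5.74 on the chow arrays, and Alas1 is highest on chow.

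A second Alas1 probe set, whose name marks it as sharing probes with other transcripts, read lower in level and showed the same order. It read 6.95, 7.46 and 7.39 on the chow arrays, 6.55, 6.36 and 6.15 in the HDAC6 knockout group, 6.77, 6.76 and 6.56 in the HDAC9 knockout group, and 6.14, 6.76 and 6.80 on the high-fat arrays. Here the chow arrays lay above all 9 others. Tested with every probe set on its own, its differences from chow were -0.91 (SE 0.182, adjusted p = 0.281), -0.57 (adjusted p = 0.780) and -0.70 (adjusted p = 0.233) for the HDAC6 knockout, the HDAC9 knockout and the high-fat diet. In that fit 0 of the 15 member probe sets passed in any of the 6 comparisons, Hmox1 included (adjusted p = 0.0570 on the high-fat diet against chow). The shares of all 20380 probe sets called there were 0.00491%, 0.00491% and 0.186% against chow in the same order, 0.00491% for HDAC9 against HDAC6 knockout, and 0.118% and 0.226% for high-fat against the HDAC6 and HDAC9 knockouts.

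The promoter sequences are shown because the transcription factor NRF1, which drives nuclear genes of mitochondria, and the E-box, a site read by clock and other factors, are known in this pathway. In RefSeq windows of 250 bases before to 50 after a gene's start (GRCm38.p6), 7 of the 9 genes were matched, with 11 windows; Fech and Hmox1 were not. The letters searched on both strands were GCGCATGC (core of the NRF1 site), CACGTG (E-box), TGACNNNGC (antioxidant response element core), TGACGTCA (cyclic AMP response element), AGGTCA (nuclear receptor half-site) and TTATGTAA (D-box). Capitals mark the match, each stretch reads 5′ to 3′ on the gene's own strand, which is the minus strand for all of them.
Alas1, chr9:106247907-106247936: ccgcacccaagGCGCATGCgcggcggtcac
Alad, chr4:62520151-62520180: gctccgaatgccCACGTGgaccccctcggg
Alad, chr4:62519920-62519949: ccgccccgccccCACGTGggcttgcgcttt
Urod, chr4:116994445-116994474: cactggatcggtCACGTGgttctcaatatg
Uros, chr7:133709516-133709545: CACGTGtgctttctcacctcgtccacgatt

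The Alas1 match began 195 bases before one of its annotated starts and 29 bases after the other, and the same letters matched on the opposite strand, overlapping it. The NRF1 core occurred in 2.71% of all 32851 windows and, among the matched genes, in Alas1 alone. An E-box occurred in 4 of the 11 windows, those of Alad, Uros and Urod, against 7.15% of all windows. The other 4 motifs had 0 matches in these windows, against 12.4% of all windows for the antioxidant core, 16.3% for the half-site, 1.79% for the cyclic AMP element and 0.938% for the D-box. These are matches of letters, not sites shown to be bound.

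The enzymes after Alas1 varied little between groups. Alad, which joins molecules of aminolevulinic acid into porphobilinogen, read 10.35, 10.28 and 10.31 on chow, 10.40, 10.44 and 10.38 in the HDAC6 knockout, 10.46, 10.20 and 10.60 in the HDAC9 knockout and 10.40, 10.50 and 10.58 on the high-fat diet. Both the HDAC6 knockout and the high-fat arrays lay wholly above chow, by means of 0.093 (SE 0.1005, adjusted p = 0.940) and 0.18 (SE 0.1005, adjusted p = 0.684), and neither passed. Uros, which closes the ring as uroporphyrinogen III, ranged from 8.30 to 8.87 over the 12 arrays, with its group means within 0.178 of each other. Urod, which trims the side chains of that ring, was the steadiest of the 9, with a range of 0.373 (8.31 to 8.68), smaller than that of most genes on the array.

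Cpox, the mitochondrial enzyme that makes protoporphyrinogen, varied more within groups than between them. Its values were 8.85, 8.84 and 9.06 on chow, 8.75, 8.73 and 8.79 on the high-fat diet, 8.92, 8.70 and 8.21 in the HDAC6 knockout and 9.05, 8.14 and 8.78 in the HDAC9 knockout. The lowest of the 12 values came from the array that carried pancreas transcripts, HDAC9 knockout replicate 2. The differences from chow were -0.30 (SE 0.201, adjusted p = 0.892) in the HDAC6 knockout, -0.26 (SE 0.201, adjusted p = 0.876) in the HDAC9 knockout and -0.16 (SE 0.201, adjusted p = 0.865) on the high-fat diet. Without that HDAC9 knockout array the HDAC9 knockout difference was -0.00070. The high-fat arrays lay wholly below chow on this probe set, but the second Cpox probe set overlapped there, with a difference of 0.011 (SE 0.216).

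Ppox, the oxidase that precedes iron insertion, ranged from 6.99 to 7.47, and its group means lay within 0.040 of each other, from 7.201 on chow to 7.24 in the HDAC9 knockout. Its second probe set averaged 3.16, at the 10.996 percentile of probe set means. Fech, ferrochelatase, which places iron in the ring, ranged from 9.95 to 10.44 with means from 10.16 to 10.27. Further Fech probe sets averaged 9.72 and 9.09 and also had no difference past the threshold in any comparison, and the remaining one, at 4.03, lay at the 24.5 percentile of probe set means. The 95% intervals of the Fech differences from chow, -0.25 to 0.21 in the HDAC6 knockout, -0.34 to 0.12 in the HDAC9 knockout and -0.23 to 0.23 on the high-fat diet, show the sizes that these arrays cannot tell from no change.

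**Figure D2:**
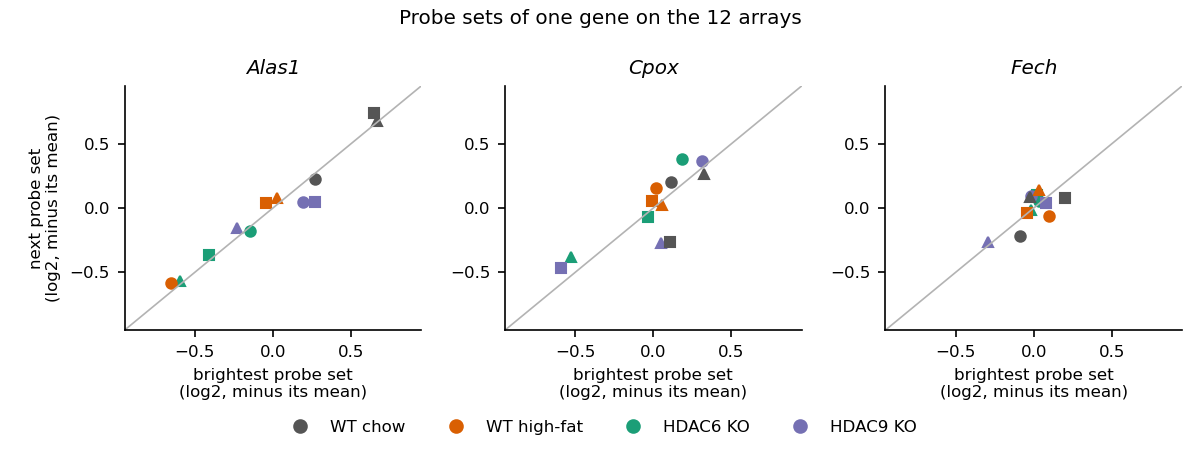
Each marker is an array, with the log2 value of a gene's brightest probe set minus its mean on the x axis and that of its next probe set on the y axis, for Alas1, Cpox and Fech; the grey line marks equal deviations, colour the group and shape the replicate number. The Alas1 probe sets follow the line over a range of 1.32, while Cpox scatters around it and Fech spans little on either axis.

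Hmox1, the inducible heme oxygenase, was the one member that rose past the threshold, in high-fat livers. It read 6.72, 6.74 and 6.49 on the high-fat arrays and 5.74, 5.48 and 5.36 on the chow arrays, so the groups did not overlap. Its mean rose 2.18-fold, from 5.53 ± 0.193 to 6.65 ± 0.138 (SD, n = 3 each; log2 difference 1.12, SE 0.213, 95% interval 0.67 to 1.58, limma adjusted p = 0.0465). The call lay close to the threshold and ended when any 1 of the 6 arrays compared was left out (adjusted p from 0.0702 to 0.199), while the difference stayed between 1.04 and 1.23. It also ended with the replicate number as a block (adjusted p = 0.0638), and over the 14 alternatives the adjusted p ran from 0.00900 to 0.199.

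In the knockouts Hmox1 varied between arrays. It read 5.53, 5.66 and 6.46 in the HDAC6 knockout group and 5.60, 6.19 and 5.83 in the HDAC9 knockout group, so the highest knockout value, 6.46, was just below the lowest high-fat array, and the others lay from 5.53 to 6.19. The differences from chow were 0.36 (SE 0.213, adjusted p = 0.881) and 0.35 (SE 0.213, adjusted p = 0.847), and neither passed. Without HDAC6 knockout replicate 3 the first was 0.067, and without HDAC9 knockout replicate 2 the second was 0.19. All 3 high-fat arrays lay above all arrays of both knockouts, by means of 0.77 against the HDAC6 knockout (SE 0.213, adjusted p = 0.262) and 0.77 against the HDAC9 knockout (SE 0.213, adjusted p = 0.185; 0.93, adjusted p = 0.127, without HDAC9 knockout replicate 2). The first of these passed when HDAC6 knockout replicate 3 was left out (1.06, adjusted p = 0.0246).

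Blvrb, a reductase that acts on biliverdin and flavins, ranged from 9.47 to 10.12. It read 10.12, 9.93 and 9.63 on chow, 10.01, 9.74 and 9.499 in the HDAC6 knockout, 9.92, 9.56 and 9.62 in the HDAC9 knockout and 10.10, 9.56 and 9.47 on the high-fat diet. The groups overlapped throughout. Its differences from chow were -0.14, -0.19 and -0.18 in that order, each with SE 0.178 and adjusted p of at least 0.828. Without HDAC9 knockout replicate 2 the differences from chow in that knockout were -0.12 for Blvrb, 0.22 for Alad, 0.26 for Uros, -0.063 for Urod, 0.025 for Ppox and -0.19 for Fech, and none passed.

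The members were chosen with earlier results of these data known, so the counts here and in the next paragraph are descriptions only. Counted over the members, 1 of 9 was called in high-fat against chow livers, where 0.290% of all genes were called and 0.226% were called as higher. In the HDAC6 knockout against chow 0 of 9 passed (0.0161% of all genes), as did 0 of 9 in the HDAC9 knockout against chow (0.0968%), HDAC9 against HDAC6 knockout (0.00807%), high-fat against HDAC6 knockout (0.145%) and high-fat against HDAC9 knockout (0.436%). At an unadjusted p under 0.05 in limma, 2 members stood in high-fat against chow, beside 8.48% of all genes. The other comparisons had 1 member each, beside 5.77%, 6.08%, 3.80%, 7.27% and 8.10% of all genes in the order just given. A test for any difference among the 4 groups called 0 of 9, against 0.331% of all genes; Hmox1 (F = 9.92, adjusted p = 0.122) and Alas1 (F = 9.38, adjusted p = 0.138) had the smallest p-values of the members. The median log2 difference of the members from chow was -0.018 in the HDAC6 knockout, -0.041 in the HDAC9 knockout and 0.00058 on the high-fat diet, beside -0.014, -0.014 and -0.010 over all genes.

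High-fat and chow arrays were fully apart for 4 of the 9 members, beside 14.7% of all genes: Alad and Hmox1 were higher (7.02% of all genes) and Alas1 and Cpox lower (7.71%). For the HDAC6 knockout against chow this held for 2 of 9, beside 10.1% of all genes: Alad was higher (4.83%) and Alas1 lower (5.31%). It held for 0 of 9 in the HDAC9 knockout against chow, beside 12.6%, and 0 of 9 in HDAC9 against HDAC6 knockout livers, beside 8.46%. Hmox1 was the 1 member apart in high-fat against HDAC6 knockout livers, beside 13.1%, and against HDAC9 knockout livers, beside 13.8%. Apart from Alas1 and Hmox1, the largest difference from chow in either direction was 0.305, that of Cpox in the HDAC6 knockout. Between the groups other than chow it was 0.147, again for Cpox, in high-fat against HDAC6 knockout livers.

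**Figure D3:**
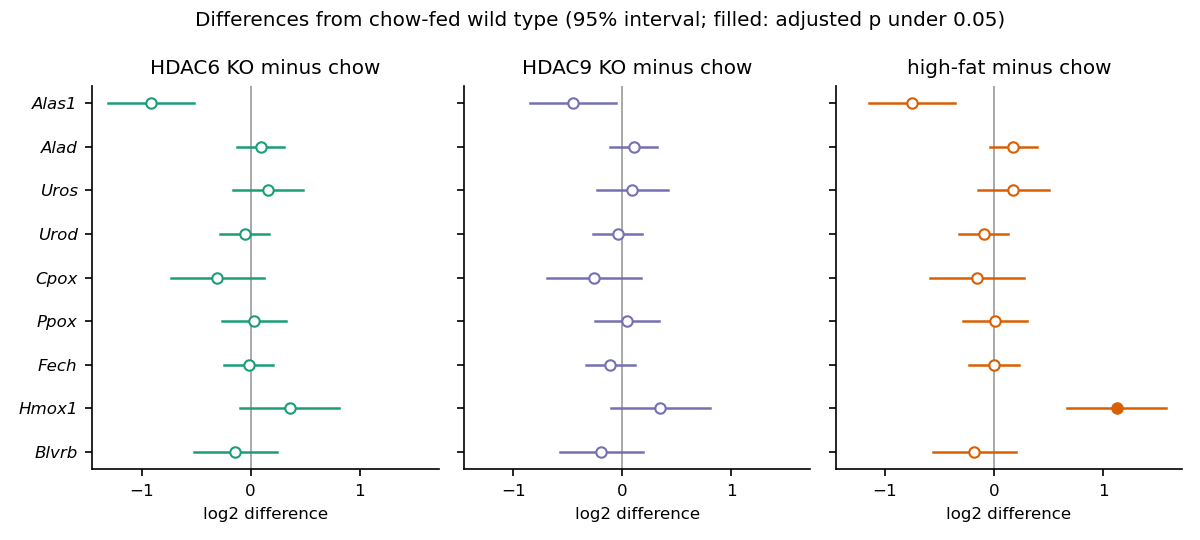
Log2 differences from chow-fed wild type (x axis) of the 9 genes (y axis) in the HDAC6 knockout, in the HDAC9 knockout and on the high-fat diet; points are limma estimates from 3 arrays a group, lines 95% intervals, and filled points have an adjusted p under 0.05. Hmox1 at 1.12 on the high-fat diet is the single filled point, and the Alas1 points lie at -0.91, -0.45 and -0.75.

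The other measured genes of heme synthesis and transport gave no call: 0 of 12 passed in any of the comparisons with chow. The smallest p-values were those of Clpx, part of a mitochondrial protease that acts on ALAS proteins, at -0.63 on the high-fat diet (adjusted p = 0.495), and of the porphyrin carrier Abcb6 at -0.25 in the HDAC9 knockout (adjusted p = 0.763; -0.19 without the array with pancreas transcripts). Of 16 genes of heme breakdown, scavenging and bilirubin handling 0 passed against chow. Among them the porphyrin exporter Abcg2 was at -0.60 (adjusted p = 0.134) and Abcc3, which exports bilirubin conjugates to blood, at -0.66 (adjusted p = 0.268), both on the high-fat diet. The constitutive oxygenase Hmox2 averaged between 8.94 and 9.08 in the 4 groups, and Blvra, the main biliverdin reductase, between 8.11 and 8.25.

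Of 24 measured heme-containing liver enzymes, 1 fell on the high-fat diet against chow, where 0.290% of all genes were called. Against chow 0 of the 24 passed in the HDAC6 knockout (0.0161% of all genes) and 0 in the HDAC9 knockout (0.0968%). In high-fat livers 1 of the 24 was called as lower against the HDAC6 knockout (0.145% of all genes called) and 1 against the HDAC9 knockout (0.436%). Cyp2b10, a drug-induced cytochrome P450, fell 12.8-fold on the high-fat diet against chow (log2 difference -3.68, SE 0.223, adjusted p = 1.27e-06), and it kept that call in all 14 alternatives. Means were lower than chow for 18 of the 24 in the HDAC6 knockout and 18 on the high-fat diet, beside 54.4% and 52.8% of all genes, with medians of -0.074 and -0.13. In the HDAC9 knockout 19 of 24 were lower, beside 54.0% of all genes (median -0.036), but 12 of 24 were without the array with pancreas transcripts, beside 53.4% (median -0.014). No test was made of these shares. Of 15 NRF2 target genes, the antioxidant set that Hmox1 is often counted with, 0 rose and 1 fell on the high-fat diet, the epoxide hydrolase gene Ephx1 (-1.02, SE 0.199, adjusted p = 0.0499), a call lost in 10 of 14 alternatives (adjusted p from 0.0198 to 0.219). The median of that list was -0.078 on the high-fat diet. In the knockouts 0 of the 15 passed.

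Of 20 measured regulators known to act on Alas1 or Hmox1, 0 passed against chow. Means were above chow for 16 of the 20 on the high-fat diet, beside 47.2% of all genes. They were above it for 9 in the HDAC6 knockout, beside 45.6%, and 9 in the HDAC9 knockout, beside 46.0% (11 without the array with pancreas transcripts). Nr1d1, the clock repressor REV-ERB alpha, read 5.95, 6.53 and 6.00 on chow and 7.12, 6.66 and 7.36 on the high-fat diet. It read 6.48, 6.96 and 7.45 in the HDAC6 knockout and 6.17, 6.501 and 5.81 in the HDAC9 knockout. The means were thus 0.89 above chow on the high-fat diet (SE 0.2499, adjusted p = 0.243) and 0.80 above it in the HDAC6 knockout (adjusted p = 0.722). In the HDAC9 knockout the mean was close to chow. Nr1d2, of the same list, averaged 9.51 on chow, 10.38 on the high-fat diet, 9.71 in the HDAC6 knockout and 9.10 in the HDAC9 knockout. Ppargc1a, another of these regulators, averaged 6.91 on chow, 7.28 on the high-fat diet, 6.94 in the HDAC6 knockout and 6.96 in the HDAC9 knockout. The part of these genes in the Alas1 values was not tested. The clock output gene Dbp spread widely within groups, from 5.33 to 8.10 on chow alone, and averaged 8.70 on the high-fat diet. Of 13 clock genes 0 passed against chow, and Nfil3, a repressor that acts opposite Dbp, fell on the high-fat diet against the HDAC9 knockout (-1.43, SE 0.246, adjusted p = 0.0243; -1.58, adjusted p = 0.0300, without HDAC9 knockout replicate 2) and was at -1.20 against chow (adjusted p = 0.0659). That call was lost in 3 of 14 alternatives, without HDAC9 knockout replicate 3 (-1.34, adjusted p = 0.0994), high-fat replicate 1 (-1.46, adjusted p = 0.0881) or high-fat replicate 3 (-1.29, adjusted p = 0.118). With all arrays 1 of the 13 clock genes passed in high-fat against the HDAC9 knockout, beside 0.436% of all genes. Without HDAC9 knockout replicate 2 it was 2 of the 13, Nfil3 among them, beside 25 of all 12393 genes. The labels give no hour of collection, and the part of the clock in the Alas1 values was not tested. Ahr, a xenobiotic receptor, had -0.79 in the HDAC9 knockout (adjusted p = 0.230; -0.72 without the array with pancreas transcripts). Bach1, the heme-sensing repressor of Hmox1, averaged 8.52 to 8.59, and Nfe2l2, which encodes NRF2, 9.26 to 9.57.

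Iron handling genes gave 0 of 15 calls against chow. The transferrin receptor Tfrc read 8.28, 8.59 and 8.52 on the high-fat arrays and 7.40, 8.01 and 6.88 on chow, a difference of 1.03 (SE 0.333, adjusted p = 0.337), and Smad7, an inhibitor of the hepcidin pathway, was at 0.70 in the HDAC6 knockout (adjusted p = 0.317).

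Macrophages express Hmox1 and erythroid cells the erythroid heme genes, so their markers are given beside these results. Of 17 measured Kupffer cell and macrophage markers 0 passed in any comparison with chow, and 15 had higher means on the high-fat diet (median 0.27), 14 in the HDAC6 knockout (0.195) and 16 in the HDAC9 knockout (0.27; 16 and 0.19 without the array with pancreas transcripts), beside 47.2%, 45.6% and 46.0% of all genes. The mean of the list ran from 8.75 to 9.12 on the chow arrays, 9.09 to 9.29 on the high-fat arrays, 9.09 to 9.21 in the HDAC6 knockout and 8.99 to 9.27 in the HDAC9 knockout. Marco and Cd68 were at 1.04 (adjusted p = 0.0930) and 0.60 (adjusted p = 0.101) on the high-fat diet. In whole liver, more macrophages and more RNA per cell cannot be told apart, and the part of macrophages in the Hmox1 rise was not tested. Of 10 measured erythroid markers 0 passed, and the erythroid enzyme Alas2 averaged 7.57 on chow, 7.11 in the HDAC6 knockout, 7.84 in the HDAC9 knockout and 6.87 on the high-fat diet (-0.70 against chow, adjusted p = 0.549). The alpha-globin probe set Hba-a1 read 2.93 to 3.36 on all 12 arrays, near the bottom of the scale. The 691 probe sets with several symbols were not used, and other globin probe sets may be among them. How much red cell RNA these livers held is thus not shown by this reading. The measured markers of hepatocytes (13), exocrine pancreas (14), neutrophils (11), cholangiocytes and stellate cells (11), liver endothelium (10) and adipocytes (5) also gave 0 calls against chow. In the HDAC9 knockout the pancreas list had a median of 1.57 against chow, or 0.25 without the array with pancreas transcripts, and the neutrophil list 0.197, or 0.22 without it.

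**Figure D4:**
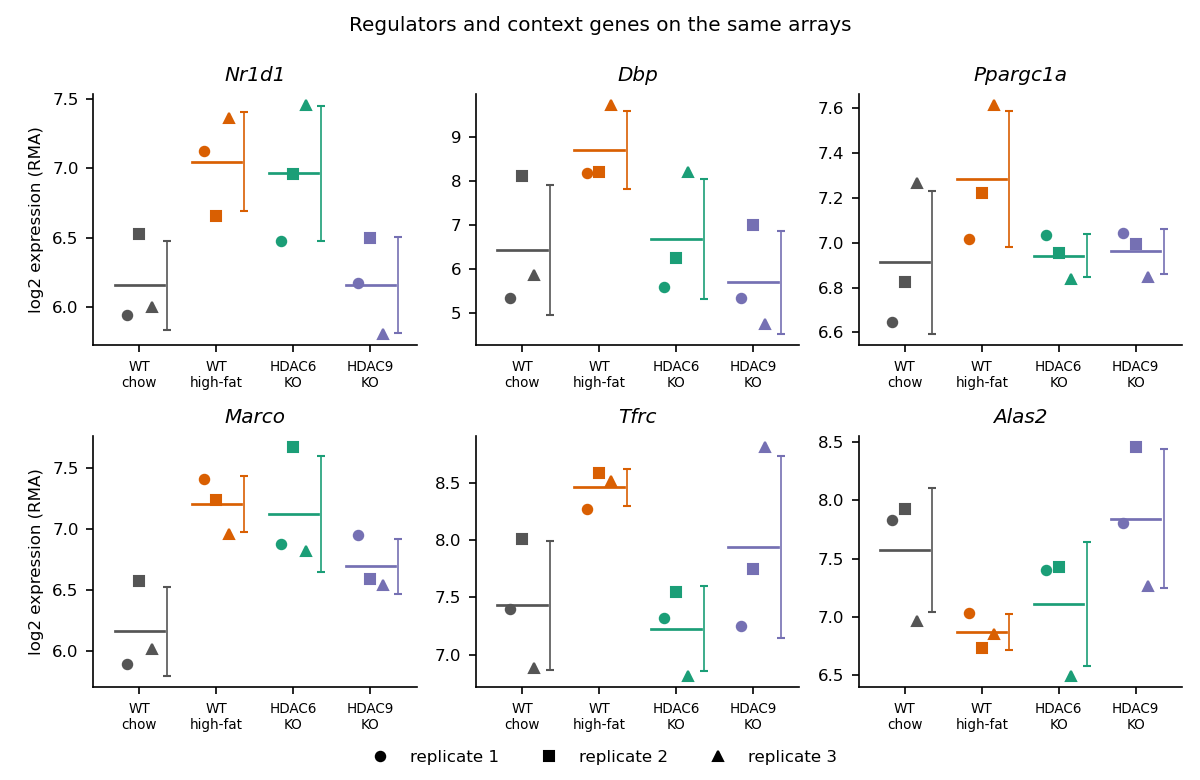
Log2 expression (y axis; scales differ between panels) of Nr1d1, Dbp, Ppargc1a, Marco, Tfrc and Alas2 in the 4 groups (x axis); markers are arrays, shapes replicate numbers, lines group means and side bars SD. The mean of Nr1d1 is 6.16 on chow and 7.05 on the high-fat diet, with the HDAC6 knockout at 6.96, and none of the 6 genes passed the threshold against chow.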

How the data were processed

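Values were deposited by the authors as log2 expression per probe set after RMA (robust multi-array average), per the submitters' processing notes; the software and chip definition are not given in the sources used here. The values were tested as they stand, and 0 per-sample columns were left unused. Of 22626 probe sets, the platform annotation gave 20380 exactly 1 symbol. For each of 12393 genes the probe set of highest mean was tested in R 4.3.3 with limma 3.58.1: 4 group means over 12 arrays, moderated two-sided tests with a mean-variance trend, and Benjamini-Hochberg adjustment over all genes of a comparison. The 6 pairwise comparisons and a moderated F-test were run, and the pairwise comparisons, but not the F-test, were tried on simulated data. With 3 arrays against 3 an exact test cannot give a p under 0.1.

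The members and lists were chosen with earlier results of these data known. All members were named. From each list the genes called were named or otherwise, for most lists, the 2 of smallest p over the 3 comparisons with chow. Dbp, Ppargc1a, Nr1d2, Hmox2, Blvra, Bach1, Nfe2l2 and Hba-a1 were added after their values were seen. Alternatives were a prior without a trend, only the 2 groups compared, quantile normalization, median centring, a filter at the 25th percentile of mean expression, the mean of a gene's probe sets, every probe set on its own, a replicate block, and leaving out single arrays. Figures were drawn with matplotlib 3.10.9. Values of list genes and lists without HDAC9 knockout replicate 2, and the alternatives for Nfil3, were added after seeing the data.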

Additional observations from a re-analysis of the deposited data

How the results depend on the processing

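The one call among the members, Hmox1 on the high-fat diet against chow, gave a count of 1 under a prior without a trend, with only the 2 groups compared and with the 25th percentile filter. The count was 0 under quantile normalization, 0 under median centring, 0 with the mean of all probe sets, 0 with every probe set on its own, 0 with the replicate block and 0 to 0 with arrays left out in turn. The size of the Hmox1 difference stayed between 1.04 and 1.23. Leaving out arrays gave counts of 0 to 1 for high-fat against HDAC6 knockout and 0 to 1 for any difference among the 4 groups, each 1 being Hmox1 without HDAC6 knockout replicate 3. The other 4 comparisons kept 0 members called in every alternative run.

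Small differences changed sign, none of them called. With the mean of all probe sets Ppox had -0.046, -0.021 and -0.040 against chow in the HDAC6 knockout, in the HDAC9 knockout and on the high-fat diet. Fech on the high-fat diet had -0.026 there, -0.0027 under quantile normalization and -0.0069 under median centring, and Hmox1 in HDAC9 against HDAC6 knockout livers had 0.0043 under median centring. With arrays left out, the differences from chow ran from -0.139 to 0.047 (HDAC6 knockout), -0.126 to 0.061 (HDAC9 knockout) and -0.178 to 0.0085 (high-fat) for Urod, from -0.064 to 0.140, -0.071 to 0.167 and -0.080 to 0.124 for Ppox, from -0.076 to 0.067 (HDAC6 knockout) and -0.058 to 0.085 (high-fat) for Fech, and from -0.037 to 0.265 (HDAC9 knockout) for Uros. Hmox1 in HDAC9 against HDAC6 knockout livers ran from -0.185 to 0.283. Alas1 kept its sign in all alternatives, from -1.04 to -0.81 in the HDAC6 knockout, -0.58 to -0.29 in the HDAC9 knockout and -0.88 to -0.53 on the high-fat diet.

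Over all genes, counts of calls ran from 1 to 4 (2 reported) for the HDAC6 knockout against chow, 0 to 17 (12) for the HDAC9 knockout, 13 to 38 (36) for high-fat, 1 to 4 (1) for HDAC9 against HDAC6 knockout, 8 to 56 (18) and 9 to 97 (54) for high-fat against the HDAC6 and HDAC9 knockouts, and 15 to 70 (41) for any difference. Without the array with pancreas transcripts (HDAC9 knockout replicate 2) they were 0 for the HDAC9 knockout against chow, where 729 genes had an unadjusted p under 0.05 in limma, and 25 for high-fat against the HDAC9 knockout. The correlation of deviations between same-numbered arrays of different groups ran from -0.152 to 0.148 and exceeded 0.1 in 4 of 18 pairs. Between arrays of different numbers it ran from -0.238 to 0.241. An array of the same number was the best match for 2 of 12 arrays. Correlations this weak cannot settle whether the numbers pair the samples. The causes of these changes were not tested.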

Other observations

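The members did not vary as one group over the 12 arrays. Among the 36 pairs of members the highest Pearson correlation of log2 values was that of Alad and Uros (r = 0.68), and the lowest was that of Alad and Fech (r = -0.59). Alas1 and Hmox1 had r = -0.57, with Alas1 highest on chow and Hmox1 lowest there. These values are descriptions over arrays that share 4 groups, and no test was made of them.

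Among 12384 other genes, the profile most like that of Alas1 over the 12 arrays was that of Extl3 (r = 0.873), followed by Grin3b (r = 0.857) and the glutathione transferase Gsto1 (r = 0.852). Extl3 spanned 7.198 to 7.598, a narrower range than Alas1, and was lowest on high-fat replicate 1, as was Alas1. Grin3b spanned only 4.28 to 4.77, low on the scale. The profile most like that of Hmox1 was that of Tbc1d10a (r = 0.915), followed by Ifna9 (r = 0.880) and Epha1 (r = 0.879). Tbc1d10a ran from 5.79 on chow replicate 2 to 6.75 on high-fat replicate 1, while Ifna9 spanned only 3.66 to 4.09, low on the scale. These genes were picked as the highest of 12384 correlations over 12 arrays. High values are thus partly owed to the choice, and shared regulation was not tested.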
